A study of Mus musculus with 46 samples.

Results

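Progression from G1 into S phase is held back by the inhibitors of the cyclin-dependent kinases (CDKs) and by the pocket proteins of the Rb family, and 8 of these genes were followed here across mouse mammary tumor models: the INK4 inhibitors Cdkn2a, Cdkn2b and Cdkn2c, the CIP/KIP inhibitors Cdkn1b and Cdkn1c, and the pocket protein genes Rb1, Rbl1 and Rbl2. The members were chosen by name, with no rule on their values but with earlier results of these data known. They are 8 of the 9329 genes tested. Each gene was read from the probe set (a group of short probes against 1 transcript) with the highest mean over all 46 arrays. All 8 members passed the filter on low values, which asked for a log2 value over 4 on at least 3 arrays. Cdkn2a exceeded that value on 19 of the 46 arrays, Cdkn1c on 26, Cdkn2b on 45 and the other members on all 46.

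INK4 proteins bind the kinases CDK4 and CDK6 and keep them from pairing with D-type cyclins, whereas CIP/KIP proteins bind complexes of cyclins with their kinases, those of CDK2 among them. The active kinases phosphorylate Rb, p107 and p130, which until then hold E2F transcription factors and keep genes of DNA replication off. The Cdkn2a locus makes 2 unrelated proteins from separate start sites, the INK4 protein p16Ink4a and the p53 activator p19Arf, and in mammary tumors this pathway is known as a frequent target of oncogenes, of viral oncoproteins and of gene loss.

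RNA of 41 primary mammary tumors and 5 normal mammary glands of female mice was hybridised to 1 array each, and the 8 models were compared with each other and with the gland. In the C3(1)/Tag model (5 tumors) the C3(1) promoter drove the SV40 T and t antigens, and T antigen is known to bind both p53 and the pocket proteins. The mouse mammary tumor virus (MMTV) promoter drove the oncogene in MMTV-PymT (6 tumors, the polyoma middle T antigen), MMTV-H-Ras (5), MMTV-Wnt1 (4), MMTV-Her2/neu (5) and MMTV-c-Myc (4), and it drove Cre recombinase in the remaining 2 models. These were the p53-/- transplant model (7 tumors), in which both floxed p53 alleles were deleted in transplanted Balb/C tissue, and the BRCA1-/-p53+/- model (5 tumors), with floxed BRCA1 alleles and 1 lost p53 allele on a 129B6/FVB background. All other tumors and the 5 glands, which came from late-pregnant mice, were of the FVB strain, so for those 2 models the strain and the model cannot be told apart. The C3(1)/Tag, p53-/- transplant and BRCA1-/-p53+/- models are called basal-type here (17 tumors) and the 5 MMTV oncogene models luminal-type (24 tumors), after the features by which these models are known. Values are log2 GC-RMA values, so a difference of 1 is a doubling.

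The medians of the arrays lay between 6.48 and 7.48. The mean of 8 epithelial markers (keratins, Epcam, Cdh1 and claudins) lay below 9 in 4 tumors, BRCA1-/-p53+/- 2 (8.62), 3 (6.13) and 4 (4.87) and MMTV-Wnt1 3 (6.93), and between 10.3 and 13.1 on all other arrays. The mean of 7 salivary gland markers exceeded 10 in 6 tumors, MMTV-H-Ras 1, 2, 3 and 5, MMTV-PymT 2 and MMTV-Wnt1 2, and all differences were also computed without the 4 and without the 6. The glands carried milk and adipocyte markers at means of 15.0 to 15.5 and 11.6 to 12.5, and all 6 measured genes of either list were lower in the mean of the 8 models. BRCA1-/-p53+/- 2 had means of 12.2 for milk, 13.4 for adipocyte and 14.1 for skeletal muscle markers. BRCA1-/-p53+/- 1 had an adipocyte mean of 9.40, and tumors 3, 4 and 5 of that model had 3.97, 4.36 and 3.83. In bulk tissue, fewer cells of a type and less RNA per cell cannot be told apart.

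RefSeq start sites matched 6 of the 8 members, with 8 windows of 300 bases each (250 before the start and 50 from it, build GRCm38.p6); Cdkn1c and Rb1 were not matched. The windows were read for 4 E2F-type words, TTTCCCGC, TTTCGCGC, TTTGCCGC and TTTGGCGC, on both strands, and 2 member windows held a word, against 2.26% of all 32851 windows. They belong to Rbl1 and to the upstream start site of Cdkn2a, and the stretch around the word is shown for both. Bases are given 5′ to 3′ on the gene's strand with the word in capitals. The Rbl1 stretch ends at the base before the start site (chr2:157204535-157204612, minus strand), with TTTCGCGC, held by 0.323% of all windows, at -18 to -11. The Cdkn2a stretch runs from -159 to -52 (chr4:89294671-89294778, minus strand), with TTTCCCGC, held by 1.07% of all windows, at -99 to -92.
Rbl1: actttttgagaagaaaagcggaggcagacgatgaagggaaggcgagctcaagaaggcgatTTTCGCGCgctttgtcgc
Cdkn2a: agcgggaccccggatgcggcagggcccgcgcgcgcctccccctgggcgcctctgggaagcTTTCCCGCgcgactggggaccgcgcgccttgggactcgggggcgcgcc
These matches describe letters in a window and no more. No word was found in the windows of Cdkn2b, Cdkn2c, Cdkn1b, Rbl2 and the downstream start site of Cdkn2a.

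Between the models most members differed. The F test over the 8 models passed an adjusted p of 0.05 (limma, Benjamini-Hochberg over all 9329 genes) for 6 of the 8 members, against 74.5% of all genes, a share near that of the background. Those were Cdkn2a, Cdkn2b, Cdkn2c, Rb1, Rbl1 and Rbl2, and the test did not pass for Cdkn1b (adjusted p = 0.159) and Cdkn1c (adjusted p = 0.621). In the mean of the 8 models against the gland, 3 members were higher (24.2% of all genes were) and 3 were lower (17.1% of all genes were). The higher members were Cdkn2a, Cdkn2b and Rbl1 and the lower ones Cdkn2c, Cdkn1c and Rb1. The median difference over the members was 0.21, and over all genes it was 0.20.

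Model by model against the gland, the share of members called ran from 2 to 6 of 8. The p53-/- transplant tumors had 6 called members (42.7% of all genes were called in either direction), C3(1)/Tag tumors 5 (48.0%), MMTV-H-Ras tumors 5 (28.1%) and MMTV-c-Myc tumors 5 (31.7%). BRCA1-/-p53+/- tumors had 3 (32.1%), MMTV-Wnt1 tumors 3 (27.8%), MMTV-Her2/neu tumors 2 (35.1%) and MMTV-PymT tumors 2 (32.6%). All 8 comparisons share the 5 glands. Over the 64 pairs of a member and a model, 31 were called.

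**Figure D1:**
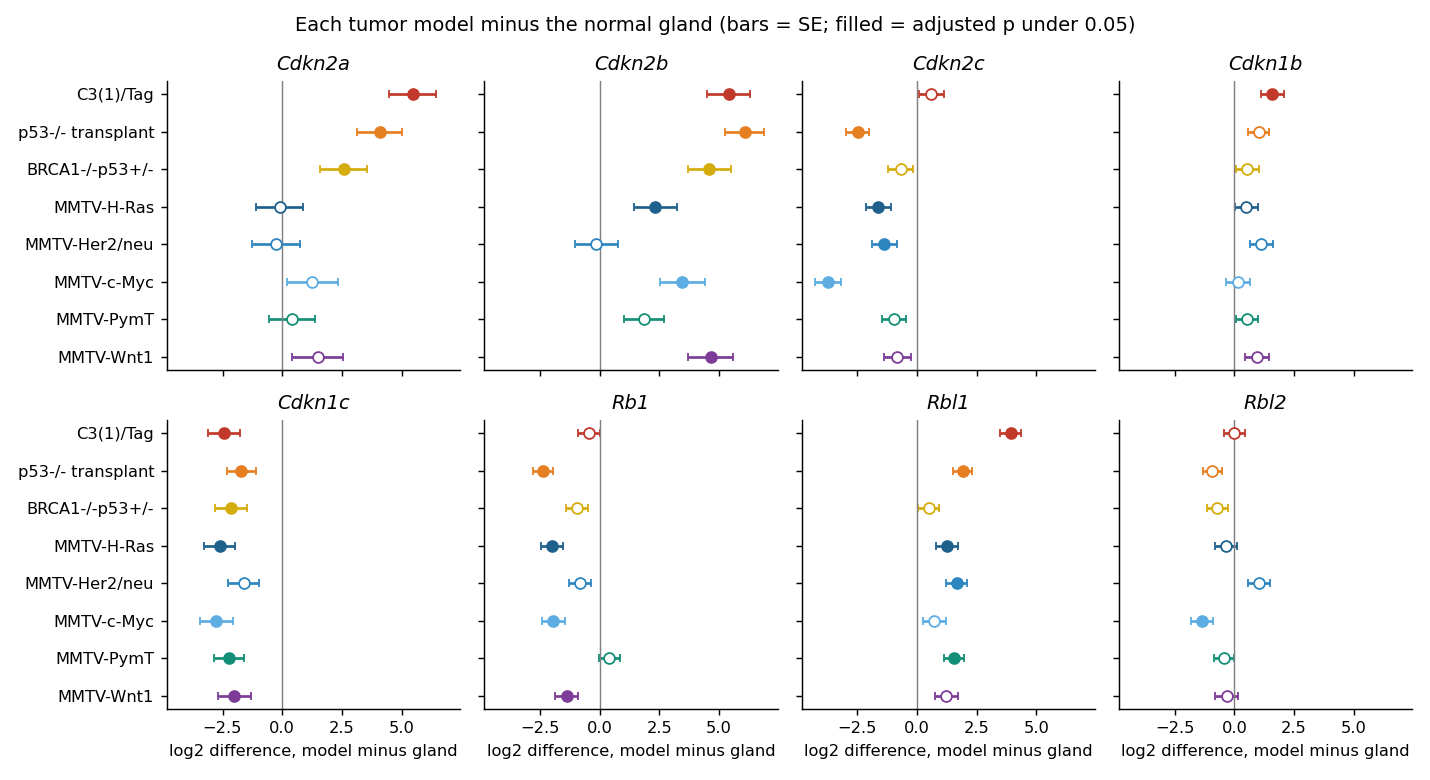
Log2 difference of each tumor model minus the normal gland (x axis) for the 8 members, with the 8 models as rows. Points are limma estimates, bars are standard errors and filled points have an adjusted p under 0.05; Cdkn2b and Rbl1 were called higher in 6 and 5 models, Cdkn1c was called lower in 7, and Cdkn2a was called higher in the 3 basal-type models.

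Against the mean of the other 7 models, 17 of the 64 pairs were called. C3(1)/Tag tumors had 4 called members (28.9% of all genes were called in either direction), all 4 higher (19.5% of all genes were higher) and none lower (9.42% were lower), with a median over the members of 1.52 against 0.10 over all genes. In p53-/- transplant tumors 4 were called (16.3%), 2 higher and 2 lower. MMTV-Her2/neu tumors had 3 called members (25.2%), MMTV-H-Ras tumors 2 (24.4%) and MMTV-PymT tumors 2 (17.8%). BRCA1-/-p53+/- tumors had 1 (18.6%), MMTV-c-Myc tumors 1 (9.52%) and MMTV-Wnt1 tumors 0 (6.32%).

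Cdkn2a was high in the basal-type models and near the floor of the array in most other tissues. The 5 C3(1)/Tag tumors read 6.89, 8.58, 9.57, 7.78 and 6.37. The 7 p53-/- transplant tumors ran from 4.43 to 8.08 with a median of 7.00. The 5 BRCA1-/-p53+/- tumors read 4.19, 2.40, 8.70, 7.10 and 2.37. Thus every tumor of the first 2 models lay above every gland, and the BRCA1-/-p53+/- model held both levels. The 5 glands read 2.54, 2.20, 2.40, 2.44 and 2.34. MMTV-H-Ras tumors lay between 2.13 and 2.42 and MMTV-Her2/neu tumors between 2.07 and 2.20. Values this low are close to the lowest value of the whole data set (1.70), and no order was read among them. MMTV-c-Myc tumors read 5.95, 2.13, 4.10 and 2.37, MMTV-Wnt1 tumors 2.37, 2.53, 8.18 and 2.41, and 5 of the 6 MMTV-PymT tumors lay between 2.05 and 2.45 with PymT 5 at 5.92. Each of these 3 models thus held a minority of high tumors, or an even split in MMTV-c-Myc, above tumors at the floor. The probe set does not tell the transcripts of p16Ink4a and p19Arf apart.

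Against the gland, Cdkn2a was higher by 5.45 (SE 1.00, adjusted p = 2.23e-05) in C3(1)/Tag, by 4.07 (SE 0.926, adjusted p = 4.60e-04) in p53-/- transplant and by 2.57 (SE 1.00, adjusted p = 0.0457) in BRCA1-/-p53+/- tumors. The glands lay near the floor, so the sizes depend on it, and with values under 4 set to 4 they were 3.84 (adjusted p = 8.24e-05), 2.46 (adjusted p = 0.00506) and 1.60 (adjusted p = 0.111). The last call rested on few arrays. The highest BRCA1-/-p53+/- values, in tumors 3 and 4, came from the 2 arrays with the lowest epithelial marker means. Without tumor 3 the difference was 1.63 (adjusted p = 0.223), without tumor 4 it was 2.03 (adjusted p = 0.149), and without all 4 tumors of low epithelial marker level it was 0.89 (adjusted p = 0.549). Leaving out any 1 of the 5 glands also ended this call, with adjusted p from 0.0645 to 0.0755, and so did quantile normalization (adjusted p = 0.0522), no filter (adjusted p = 0.0521) and the fit without the 6 salivary-marker tumors (adjusted p = 0.0635). MMTV-Wnt1 3, the only high MMTV-Wnt1 tumor, is the array of that model with a low epithelial mean. Its part in the value was not tested. Averaged over the 8 models Cdkn2a was higher than in the gland by 1.86 (SE 0.751, adjusted p = 0.0441). That call was lost in 9 of the 46 fits that left out 1 array, namely any of the 5 glands, C3(1)/Tag 2 or 3 or MMTV-c-Myc 1 or 3, with differences of 1.76 to 1.89. It was also lost in 5 of 14 other alternatives, after centring each array on its median (1.65, adjusted p = 0.0729), with no filter (1.86, adjusted p = 0.0504), with values under 4 set to 4 (1.22, adjusted p = 0.0899), on FVB arrays only (1.37, adjusted p = 0.0865) and without the 6 salivary-marker tumors (1.91, adjusted p = 0.0628).

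Against the other models, Cdkn2a was higher by 4.11 in C3(1)/Tag (SE 0.757, adjusted p = 7.34e-05) and by 2.53 in p53-/- transplant tumors (SE 0.658, adjusted p = 0.00647). It was lower in MMTV-Her2/neu (-2.44, adjusted p = 0.0158) and in MMTV-H-Ras (-2.25, adjusted p = 0.0262). With values under 4 set to 4 the higher differences were 2.99 (adjusted p = 1.46e-04) and 1.41 (adjusted p = 0.0499), and both lower calls were lost, at -1.40 each with adjusted p = 0.0757 and 0.0766. The MMTV-H-Ras call was also lost without any 1 of its 5 arrays (adjusted p from 0.0501 to 0.0591) and without the 6 salivary-marker tumors (-2.48, adjusted p = 0.559).

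Cdkn2b, whose product p15Ink4b is known to be induced by TGF-beta, was raised in more models than Cdkn2a. The C3(1)/Tag tumors read 9.12, 9.79, 10.28, 10.33 and 10.34. Those of the p53-/- transplant model ran from 8.98 to 11.63 with a median of 10.52. The glands read 4.15, 4.35, 5.88, 4.39 and 4.06. No tumor of either model came within 3 units of a gland. BRCA1-/-p53+/- tumors read 9.58, 7.08, 10.82, 11.37 and 6.93, MMTV-Wnt1 tumors 10.35, 7.22, 10.76 and 8.52, and MMTV-H-Ras tumors 7.38, 6.27, 6.72, 7.11 and 6.99. All 14 of these tumors also lay above every gland. The MMTV-c-Myc tumors read 10.86, 5.60, 11.34 and 4.32. The MMTV-PymT tumors ran from 5.04 to 7.80 with a median of 6.53, and the MMTV-Her2/neu tumors read 5.00, 4.95, 3.42, 4.35 and 4.41. MMTV-c-Myc thus held 2 tumors at the basal-type level and 2 among the glands, and no MMTV-Her2/neu tumor exceeded the highest gland.

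In the fit against the gland Cdkn2b was higher by 6.07 (SE 0.826, adjusted p = 2.19e-07) in p53-/- transplant, 5.41 (adjusted p = 4.23e-06) in C3(1)/Tag, 4.65 (adjusted p = 2.79e-04) in MMTV-Wnt1, 4.59 (adjusted p = 1.45e-04) in BRCA1-/-p53+/-, 3.46 (adjusted p = 0.00438) in MMTV-c-Myc and 2.33 (adjusted p = 0.0465) in MMTV-H-Ras tumors. The differences in MMTV-PymT (1.86, adjusted p = 0.0924) and MMTV-Her2/neu (-0.14, adjusted p = 0.944) did not pass. Without MMTV-c-Myc 3 the MMTV-c-Myc difference was 2.36 (adjusted p = 0.0599). The MMTV-H-Ras call was lost in 17 of the 46 fits without 1 array (highest adjusted p 0.0863). These were the fits without any of the 5 MMTV-H-Ras tumors, glands 1, 2, 4 or 5, C3(1)/Tag 2, 3 or 4, MMTV-Her2/neu 2, 4 or 5 or MMTV-PymT 2 or 4, with differences of 2.20 to 2.48. It was lost with no filter as well (adjusted p = 0.0529). Against the other models Cdkn2b was higher in p53-/- transplant (2.91, SE 0.586, adjusted p = 5.81e-04) and C3(1)/Tag (2.15, SE 0.675, adjusted p = 0.0142). It was lower in MMTV-Her2/neu (-4.19, SE 0.675, adjusted p = 1.47e-05) and in MMTV-PymT (-1.90, adjusted p = 0.0298). Without MMTV-PymT 1, 2 or 3 the last difference was -1.78, -1.92 or -1.63 and its adjusted p 0.0828, 0.0661 or 0.112. On FVB arrays only it was -1.28 (adjusted p = 0.165) and without the 6 salivary-marker tumors -2.05 (adjusted p = 0.0818).

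**Figure D2:**
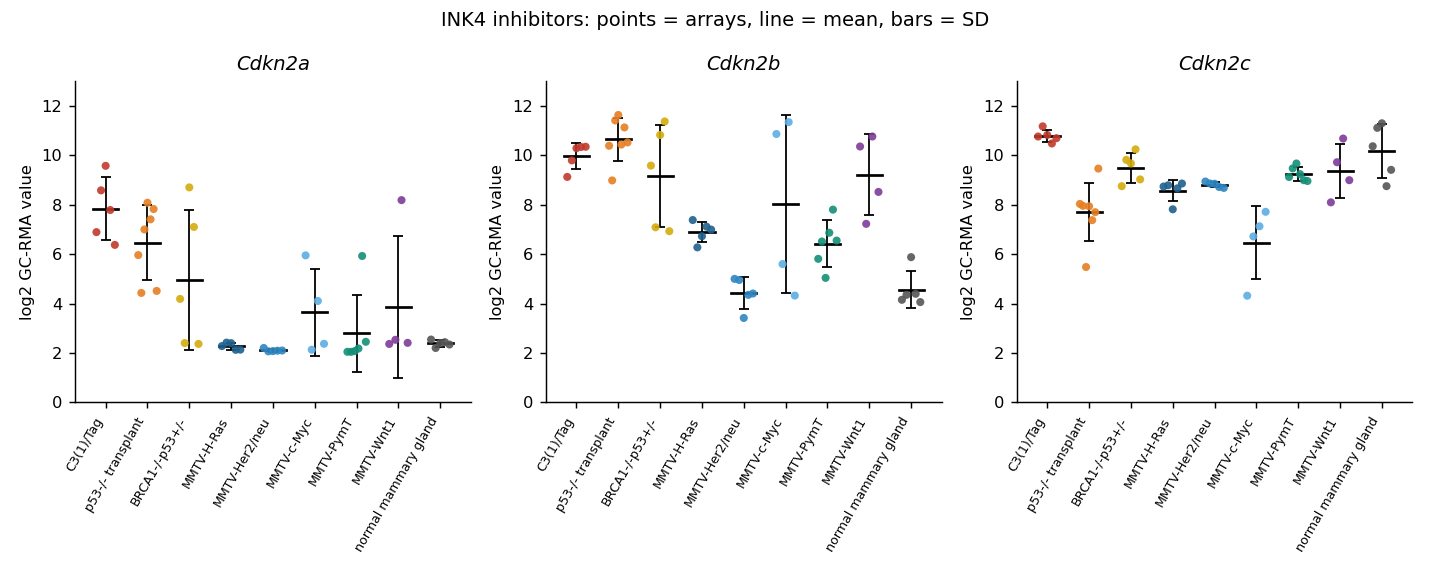
Log2 GC-RMA values (y axis) of the 3 INK4 inhibitors in the 9 groups (x axis). Points are arrays, horizontal lines are group means and bars are SD; Cdkn2a sat near 2 in most MMTV tumors and in the glands, Cdkn2b ran from 3.42 to 11.63 over the tumors, and Cdkn2c was lowest in MMTV-c-Myc (mean 6.47).

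Cdkn2a and Cdkn2b lie next to each other on chromosome 4 (chr4:89274473-89294619 and chr4:89306289-89311032, GRCm38.p6), and their values were read side by side. Cdkn2a exceeded 4 in 19 of the 41 tumors, of which 15 were basal-type (of 17) and 4 luminal-type (of 24), and in these 19 tumors Cdkn2b lay between 7.80 and 11.63. In the other 22 tumors Cdkn2a lay between 2.05 and 2.53 and Cdkn2b between 3.42 and 10.35. So every tumor with Cdkn2a above the floor had Cdkn2b well above the glands, and tumors with Cdkn2a at the floor took nearly the whole range of Cdkn2b. Since Cdkn2a fell into these 2 separate clusters, no correlation of this gene is read as a result.

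**Figure D3:**
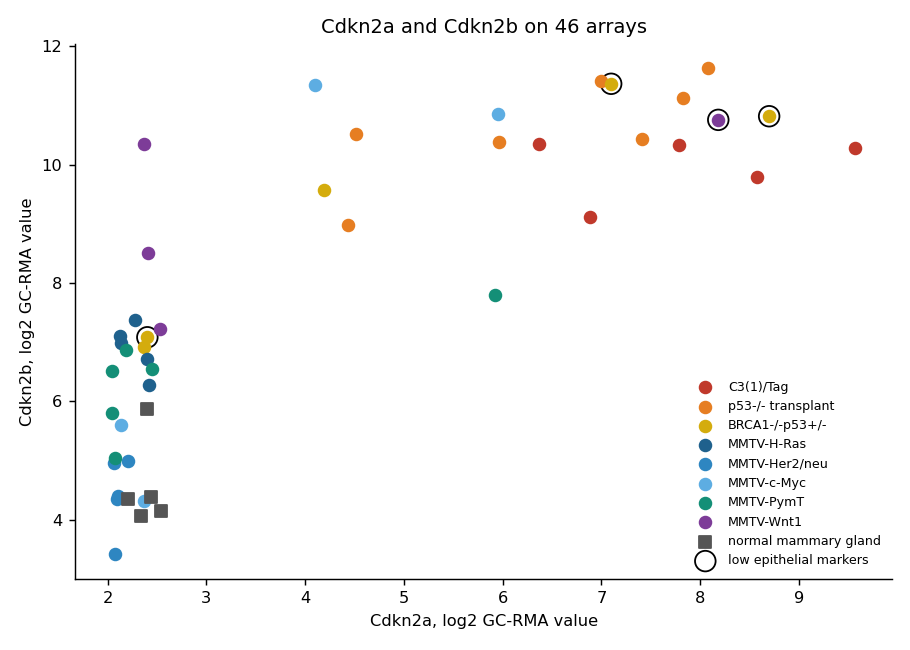
Cdkn2b against Cdkn2a, both as log2 GC-RMA values, on all 46 arrays coloured by group, with squares for the glands and rings around the 4 tumors of low epithelial marker level. The 19 tumors with Cdkn2a over 4 have Cdkn2b values of 7.80 or more, and 22 tumors form a column at Cdkn2a values of 2.05 to 2.53.

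Between the tumor classes, 2 members were higher in the basal-type ones (15.9% of all genes were) and none was lower (12.0% of all genes were). The median difference over the members was 0.48, and over all genes it was 0.06. Cdkn2a averaged 6.42 ± 2.15 (SD, n = 17) against 2.86 ± 1.58 (SD, n = 24), a difference of 3.56 (SE 0.564, adjusted p = 2.36e-05), or of 2.27 (adjusted p = 2.05e-04) with values under 4 set to 4. Cdkn2b averaged 10.01 ± 1.35 against 6.84 ± 2.20, a difference of 3.17 (SE 0.585, adjusted p = 1.54e-04). Rbl1 stood at 9.78 ± 1.54 against 9.02 ± 0.70 (difference 0.76, adjusted p = 0.0969), and the other 5 differences lay between -0.35 and 0.57. Tumors of 1 model are not independent of each other, and neither call held once the model entered as a random block (adjusted p = 0.0698 for Cdkn2a and 0.0921 for Cdkn2b), at nearly the same differences of 3.51 and 3.00. Rbl1 passed without BRCA1-/-p53+/- 1 (0.93, adjusted p = 0.0310) or 2 (0.96, adjusted p = 0.0198) and in 6 of 17 other alternatives. These were FVB arrays only (2.60, adjusted p = 7.88e-07), the fibroblast and matrix covariate (1.31, adjusted p = 0.0320), array weights (1.28, adjusted p = 1.23e-04), the mean over probe sets (1.19, adjusted p = 0.00154), the omission of the 4 low-epithelial tumors (1.04, adjusted p = 0.0152) and equal-weighted models (0.82, adjusted p = 0.00463). Cdkn2c (0.57 as reported) passed on FVB arrays only (2.21, adjusted p = 0.00273), with equal-weighted models (0.84, adjusted p = 0.0122) and with array weights (0.82, adjusted p = 0.0458). C3(1)/Tag was the only basal-type model among FVB arrays. Of 11 fibroblast and matrix genes measured, 9 were also higher in basal-type tumors, with a list mean of 6.11 to 12.7 (median 9.82) against 5.02 to 12.4 (median 7.56). As a covariate the 11 genes were averaged after each was centred on its mean and divided by its SD over the arrays. With that covariate the Cdkn2a difference was 2.71 (adjusted p = 0.00741) and the Cdkn2b difference 1.84 (adjusted p = 0.0450). Other marker lists held called genes too, beside shares of 15.9% of all genes higher and 12.0% lower in basal-type tumors. Of 7 salivary gland markers 5 were lower in basal-type tumors (list mean 2.32 to 7.31, median 2.61, against 2.47 to 13.6, median 5.92), as were 3 of 6 milk markers (2.76 to 12.2, median 5.81, against 3.52 to 14.2, median 9.83). Higher in basal-type tumors were 3 of 8 endothelial markers (4.16 to 7.73, median 5.38, against 3.46 to 6.69, median 4.64), 2 of 9 macrophage markers (7.29 to 11.7, median 9.93, against 6.34 to 12.0, median 8.87), 1 of 2 T cell markers and 1 of 3 B and plasma cell markers. The macrophage, T cell and B and plasma cell counts rest on 1 or 2 genes and are not read as a shift of the list. The part of the marker lists in the class differences was not tested.

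Cdkn2c, which encodes p18Ink4c, followed neither of its relatives. The C3(1)/Tag tumors read 10.76, 11.17, 10.82, 10.47 and 10.69, and the glands 10.36, 11.11, 11.29, 8.75 and 9.41. MMTV-c-Myc tumors read 4.32, 6.71, 7.13 and 7.71. The p53-/- transplant tumors ran from 5.48 to 9.46 with a median of 7.93. C3(1)/Tag tumors thus overlapped with the glands, and all 4 MMTV-c-Myc tumors and 6 of the 7 p53-/- transplant tumors lay below every gland. The remaining models had means between 8.57 (MMTV-H-Ras) and 9.50 (BRCA1-/-p53+/-).

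Against the gland Cdkn2c fell by 3.72 (SE 0.555, adjusted p = 3.07e-06) in MMTV-c-Myc and by 2.48 (SE 0.484, adjusted p = 7.05e-05) in p53-/- transplant tumors. It also fell by 1.61 (adjusted p = 0.0178) in MMTV-H-Ras and by 1.38 (adjusted p = 0.0373) in MMTV-Her2/neu tumors. The MMTV-H-Ras call did not hold without MMTV-H-Ras 3 (-1.42, adjusted p = 0.0538) or gland 2 or 3 (-1.38 and -1.34, adjusted p = 0.0631 and 0.0721). The MMTV-Her2/neu call did not hold in the fit without any of its 5 arrays or without gland 1, 2 or 3, with differences of -1.41 to -1.10 and a highest adjusted p of 0.128, or without the 6 salivary-marker tumors (-1.38, adjusted p = 0.0520). Over the 8 models together the gene fell by 1.38 (SE 0.393, adjusted p = 0.00439). Relative to the other models it was higher in C3(1)/Tag (2.26, SE 0.396, adjusted p = 3.59e-05) and lower in MMTV-c-Myc (-2.67, SE 0.436, adjusted p = 8.09e-05) and p53-/- transplant tumors (-1.26, adjusted p = 0.00984). Without p53-/- transplant 3, the tumor at 5.48, the last difference was -0.89 (adjusted p = 0.0631).

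Cdkn1b, which encodes p27Kip1, varied little. Its group means ran from 9.06 in the gland to 10.64 in C3(1)/Tag tumors. The C3(1)/Tag tumors read 10.34, 11.44, 11.29, 10.62 and 9.50 and the glands 8.15, 8.59, 9.06, 9.53 and 9.94. These 2 groups overlapped in 1 tumor, and the difference of 1.58 (SE 0.482, adjusted p = 0.00649) was the one call for the gene among the 8 models. Averaged over the 8 models Cdkn1b was higher by 0.80 (SE 0.362, adjusted p = 0.0716). Without MMTV-Wnt1 3 that difference was 0.91 (adjusted p = 0.00989), and without gland 5 it was 1.02 (adjusted p = 0.0382). It also passed with array weights (0.92, adjusted p = 0.0154) and without the 4 low-epithelial tumors (0.97, adjusted p = 0.00560). MMTV-Wnt1 3 read 7.41 and the other MMTV-Wnt1 tumors 10.77, 10.72 and 11.12. A further probe set of Cdkn1b ran from 2.27 to 5.34 over the 46 arrays and was not used.

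Cdkn1c, which encodes p57Kip2 and is an imprinted gene in mouse and human, stood highest in the gland. The glands read 5.27, 6.64, 7.41, 6.32 and 6.01. The tumor group means lay between 3.56 (MMTV-c-Myc) and 4.71 (MMTV-Her2/neu). All tumors of C3(1)/Tag, BRCA1-/-p53+/-, MMTV-H-Ras, MMTV-c-Myc and MMTV-PymT lay below every gland. MMTV-Her2/neu tumors read 3.00, 5.40, 7.08, 4.20 and 3.87, p53-/- transplant tumors ran from 2.53 to 6.86 with a median of 4.51, and MMTV-Wnt1 tumors read 3.93, 5.81, 4.20 and 3.36, so these 3 models overlapped with the glands.

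The fall of Cdkn1c against the gland passed in 7 of 8 models. The differences were -2.77 in MMTV-c-Myc (SE 0.696, adjusted p = 0.00211), -2.62 in MMTV-H-Ras (SE 0.656, adjusted p = 0.00240) and -2.44 in C3(1)/Tag tumors (SE 0.656, adjusted p = 0.00223). The others were -2.23 in MMTV-PymT, -2.14 in BRCA1-/-p53+/-, -2.01 in MMTV-Wnt1 and -1.71 in p53-/- transplant tumors. In MMTV-Her2/neu the difference was -1.62 (adjusted p = 0.0513). Many tumor values lay under 4, so these sizes and their order depend on the floor. With values under 4 set to 4 the differences were -2.13 in MMTV-c-Myc, -2.12 in MMTV-H-Ras, -2.22 in C3(1)/Tag and -1.33 in p53-/- transplant tumors. No call of Cdkn1c was lost in that setting. The p53-/- transplant call was lost without gland 3 (-1.44, adjusted p = 0.0757), p53-/- transplant 4 (-1.36, adjusted p = 0.0631) or 6 (-1.48, adjusted p = 0.0536), and the MMTV-Wnt1 call without MMTV-Wnt1 1, 3 or 4 or gland 2 or 3 (-1.97 to -1.69, highest adjusted p 0.0992). With array weights the p53-/- transplant (-1.80, adjusted p = 0.0784), BRCA1-/-p53+/- (-2.16, adjusted p = 0.137) and MMTV-Wnt1 calls (-2.31, adjusted p = 0.0549) were lost. Without the 4 low-epithelial tumors the BRCA1-/-p53+/- (-2.39, adjusted p = 0.0573) and MMTV-Wnt1 calls (-1.97, adjusted p = 0.0593) were lost. In the mean of the 8 models Cdkn1c fell by 2.19 (SE 0.493, adjusted p = 4.15e-04). All 6 measured adipocyte and all 6 skeletal muscle markers were lower in the mean of the 8 models too, and their part in the fall of Cdkn1c was not tested.

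**Figure D4:**
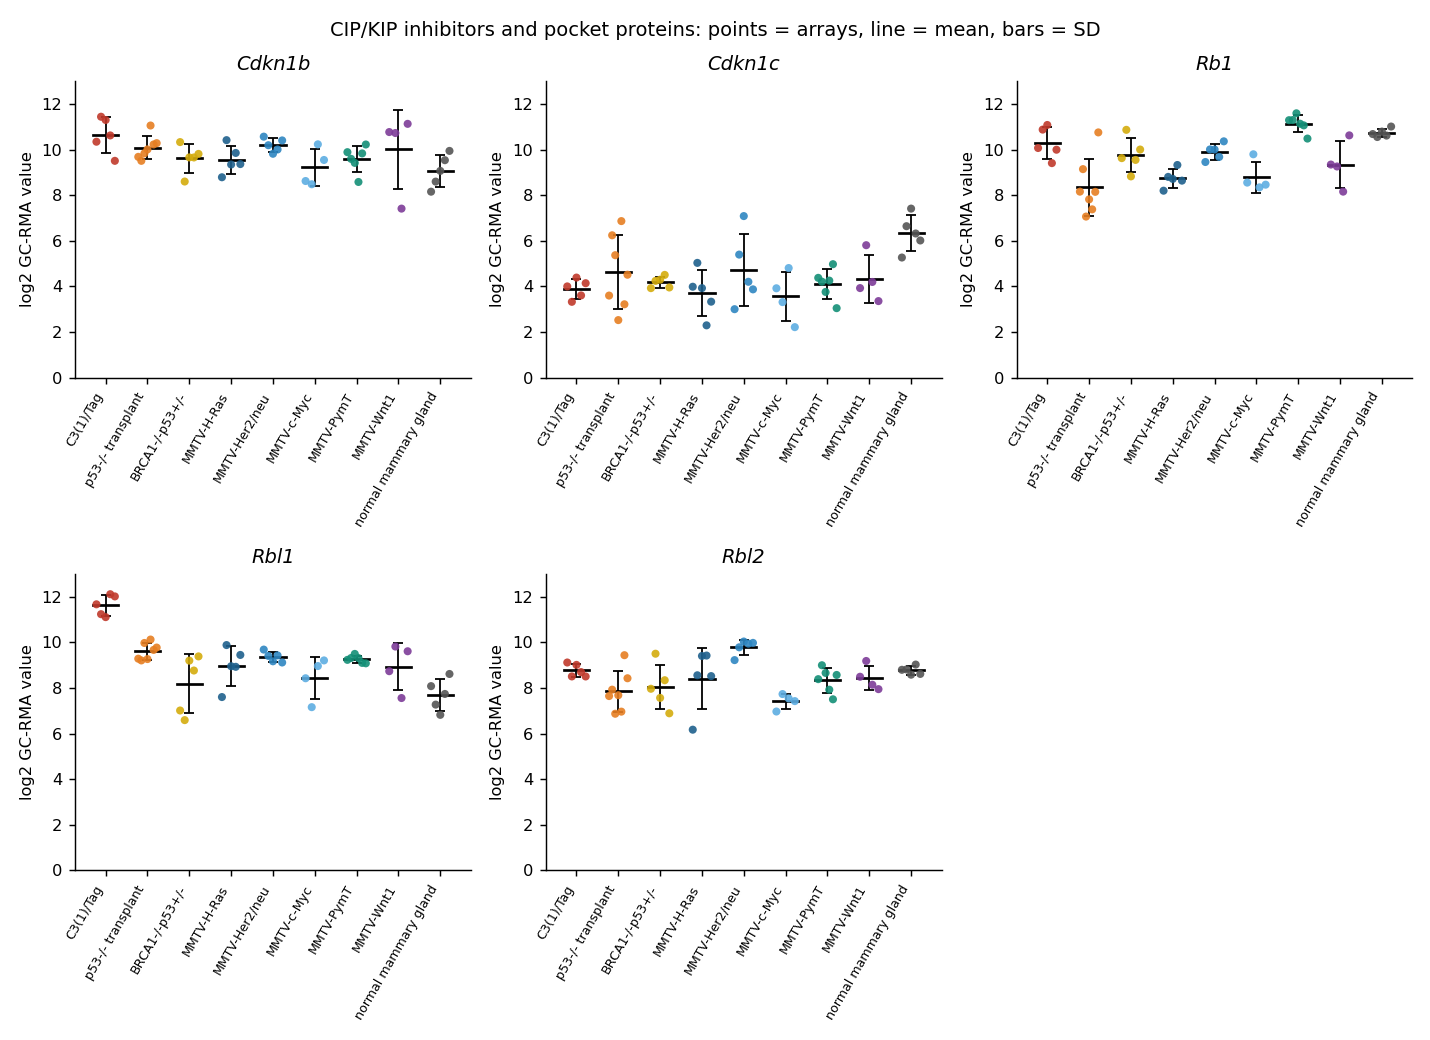
Log2 GC-RMA values (y axis) of the CIP/KIP inhibitors Cdkn1b and Cdkn1c and of the pocket protein genes Rb1, Rbl1 and Rbl2 in the 9 groups (x axis). Points are arrays, horizontal lines are group means and bars are SD; the glands are highest for Cdkn1c, C3(1)/Tag for Rbl1, MMTV-PymT for Rb1 and MMTV-Her2/neu for Rbl2.

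Rb1, the retinoblastoma gene, was highest in MMTV-PymT tumors and in the gland. The MMTV-PymT tumors ran from 10.48 to 11.59 with a median of 11.21, and the glands read 10.68, 10.55, 10.79, 10.61 and 11.01. The p53-/- transplant tumors ran from 7.06 to 10.75 with a median of 8.15. MMTV-H-Ras tumors read 8.20, 8.80, 8.71, 9.32 and 8.64. MMTV-PymT was the one model with most of its tumors (5 of 6) above every gland, and every gland exceeded 6 of 7 p53-/- transplant tumors and all tumors of MMTV-c-Myc, MMTV-H-Ras and MMTV-Her2/neu. C3(1)/Tag tumors read 10.07, 10.87, 11.07, 9.40 and 9.99 and lay above, among and below the glands.

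Against the gland Rb1 fell by 2.38 (SE 0.423, adjusted p = 1.95e-05) in p53-/- transplant, by 1.99 (SE 0.457, adjusted p = 9.97e-04) in MMTV-H-Ras, by 1.94 (SE 0.485, adjusted p = 0.00199) in MMTV-c-Myc and by 1.38 (adjusted p = 0.0291) in MMTV-Wnt1 tumors. The MMTV-Wnt1 call was lost without MMTV-Wnt1 1, 2 or 3 or gland 3 or 5, and without MMTV-Wnt1 3 the difference was -0.99 (adjusted p = 0.157). It was also lost with array weights (-0.76, adjusted p = 0.199), without the 4 low-epithelial tumors (-0.99, adjusted p = 0.138) and without the 6 salivary-marker tumors (-1.35, adjusted p = 0.0757). Over the 8 models together Rb1 fell by 1.19 (SE 0.343, adjusted p = 0.00499). Relative to the other models Rb1 was higher in MMTV-PymT (1.83, SE 0.320, adjusted p = 1.47e-04) and lower in p53-/- transplant (-1.36, SE 0.301, adjusted p = 0.00150) and MMTV-H-Ras tumors (-0.92, adjusted p = 0.0472). The MMTV-H-Ras difference was -0.33 (adjusted p = 0.909) without the 6 salivary-marker tumors. With all tumors it lay close to the threshold, and it was not called in 23 of the 46 fits without 1 array (-0.94 to -0.78, highest adjusted p 0.157). These were the fits without MMTV-H-Ras 1, 2, 3 or 5, any of the 5 glands, C3(1)/Tag 1, 2 or 3, MMTV-PymT 1, 2, 3 or 4, MMTV-Her2/neu 2, 3, 4 or 5, MMTV-Wnt1 4, MMTV-c-Myc 2 or p53-/- transplant 2. It was also not called after centring each array on its median (-0.71, adjusted p = 0.134) or after quantile normalization (-0.74, adjusted p = 0.120).

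Rbl1, which encodes p107 and is itself known as an E2F target gene, was higher in every C3(1)/Tag tumor than on any other array. The C3(1)/Tag tumors read 11.66, 11.23, 11.10, 12.10 and 12.01. The p53-/- transplant tumors had the next highest mean and ran from 9.20 to 10.12 with a median of 9.66. The glands read 8.08, 7.27, 6.82, 7.73 and 8.61. Every MMTV-PymT tumor (9.08 to 9.49) and every MMTV-Her2/neu tumor (9.11 to 9.68) also lay above every gland. BRCA1-/-p53+/- tumors read 7.01, 6.59, 9.19, 8.76 and 9.38 and spread over the range of the glands and beyond. The lowest values, in tumors 1 and 2, came from the arrays of that model with the highest adipocyte marker means (9.40 and 13.4). The part of that tissue in the values was not tested. A further probe set of Rbl1 had its highest mean in C3(1)/Tag tumors as well (7.34, against 3.81 in the gland and 4.10 to 5.67 in the other models).

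The Rbl1 difference from the gland was 3.92 (SE 0.450, adjusted p = 4.53e-09) in C3(1)/Tag, 1.91 (SE 0.417, adjusted p = 2.90e-04) in p53-/- transplant, 1.65 (adjusted p = 0.00389) in MMTV-Her2/neu, 1.55 (adjusted p = 0.00512) in MMTV-PymT and 1.26 (adjusted p = 0.0326) in MMTV-H-Ras tumors. The MMTV-H-Ras call was lost without MMTV-H-Ras 2, 3 or 5 or gland 2 or 3 (1.03 to 1.26, highest adjusted p 0.113). With the mean over probe sets the MMTV-Her2/neu and MMTV-PymT differences were 1.04 (adjusted p = 0.00720) and 0.92 (adjusted p = 0.0137). Rbl1 rose by 1.59 in the mean of the 8 models (SE 0.338, adjusted p = 2.07e-04). Relative to the other models it was higher by 2.66 in C3(1)/Tag (SE 0.341, adjusted p = 1.61e-07). It was lower in BRCA1-/-p53+/- tumors (-1.26, SE 0.341, adjusted p = 0.00900), and that call was lost without BRCA1-/-p53+/- 1 (-0.97, adjusted p = 0.0704) or 2 (-0.86, adjusted p = 0.104) and without the 4 low-epithelial tumors (-1.32, adjusted p = 0.124). With the mean over probe sets it was -0.63 (adjusted p = 0.0465). The further probe set on its own did not place BRCA1-/-p53+/- tumors lowest. Their mean there was 4.97, the same as that of MMTV-Wnt1 tumors. Only C3(1)/Tag (7.34) and p53-/- transplant tumors (5.67) had clearly higher means, and the remaining models had lower ones, from 4.10 to 4.32. The lower level in BRCA1-/-p53+/- tumors thus rests on the probe set used.

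Rbl2, which encodes p130, the pocket protein known from resting cells, stood out in MMTV-Her2/neu tumors. These read 9.22, 9.78, 10.03, 9.94 and 9.97, and the glands read 8.79, 8.81, 8.58, 9.02 and 8.61. MMTV-c-Myc tumors read 6.96, 7.73, 7.54 and 7.42. All MMTV-Her2/neu tumors lay above and all MMTV-c-Myc tumors below every gland. Relative to the other models Rbl2 was higher in MMTV-Her2/neu by 1.61 (SE 0.339, adjusted p = 5.25e-04), while its difference from the gland was 1.03 (adjusted p = 0.0722). In MMTV-c-Myc tumors it fell by 1.35 against the gland (SE 0.476, adjusted p = 0.0267), and without MMTV-c-Myc 1 or gland 4 by 1.20 (adjusted p = 0.0841) or 1.28 (adjusted p = 0.0515). On the probe set of largest variance it fell by 2.06 (adjusted p = 0.00587). The second probe set of Rbl2 also had its highest mean in MMTV-Her2/neu tumors (8.14) and its lowest in MMTV-c-Myc tumors (4.69).

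MMTV-H-Ras held 4 of the 6 tumors with high salivary gland markers. Without those 6 tumors the model was left with 1 array, which was assumed to vary like the other groups. Its differences from the gland were then 2.54 for Cdkn2b, -1.52 for Cdkn2c, -1.40 for Rb1 and 1.22 for Rbl1, none of them called (adjusted p = 0.361, 0.361, 0.329 and 0.346). The difference of Cdkn1c was -4.03 on that array, MMTV-H-Ras 4, against -2.62 with all 5. That array read 2.30 for Cdkn1c, near the floor, so the size rests on 1 floor value.

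Neighbouring groups in the order of means were compared by 64 exact two-sided permutation tests, of which 4 gave an unadjusted p under 0.05. The neighbours are by choice the pairs with the smallest gaps, and the smallest p these group sizes allow (0.00126 to 0.0286) could not alone pass an adjustment over 64 tests, so the values are descriptions and do not show that the other 60 pairs are alike. The smallest was that of Rbl1 between C3(1)/Tag and p53-/- transplant tumors (11.62 against 9.61, exact p = 0.00126, adjusted p = 0.0806), which did not overlap and which is the smallest p that 5 against 7 arrays allow. Rbl2 in MMTV-Her2/neu over C3(1)/Tag tumors (9.79 against 8.76, exact p = 0.00794, adjusted p = 0.173) and Cdkn2c in MMTV-PymT over MMTV-Her2/neu tumors (9.24 against 8.81, exact p = 0.00866, adjusted p = 0.173) did not overlap either. For Cdkn2b, MMTV-PymT tumors lay above the gland (6.43 against 4.57, exact p = 0.0108, adjusted p = 0.173) with overlapping values.

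Genes of replication and mitosis were higher in C3(1)/Tag tumors than in the other models. The lists were chosen with results of these data known, so their counts are descriptions. They stand beside shares of 19.5% of all genes higher in C3(1)/Tag tumors than in the other models, 24.2% higher in the mean of the 8 models than in the gland and 15.9% higher in basal-type tumors. Of 24 replication genes known as E2F targets, 21 were measured, and 21 of 21 were higher in C3(1)/Tag tumors than in the other models (median 2.37 against 0.10 over all genes), with Mcm5 (3.50), Cdc6 (3.22) and Pola1 (3.21) in front. In the mean of the 8 models against the gland 19 of 21 were higher (Tk1 4.39, Uhrf1 3.98 and Mcm5 3.75), and between the classes 6 of 21 were higher in basal-type tumors (Mcm3 1.46, Cdc6 1.18 and Mcm7 0.92). None was lower in these 3 comparisons. Of 14 measured mitotic genes, 14 were higher in C3(1)/Tag tumors (Foxm1 3.14, Kif11 2.96 and Aurkb 2.87), 14 were higher in tumors than in the gland (Ccnb2 4.96, Aurka 4.78 and Bub1 4.48) and 3 were higher in basal-type tumors (Cenpe 1.60, Foxm1 1.47 and Bub1 1.12), a share near that of all genes.

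Of 16 listed E2F, DP and DREAM complex genes, Mybl2 among them, 9 were measured. The list was not limited to genes whose products bind a pocket protein. In C3(1)/Tag tumors 6 of the 9 were higher than in the other models (E2f8 3.05, Mybl2 3.04 and E2f1 2.76), 5 were higher in the mean of the 8 models than in the gland (E2f8 1.63, Mybl2 1.56 and Tfdp1 1.22), and 3 were higher in basal-type tumors (Mybl2 1.79, E2f8 1.68 and E2f1 1.27). Of the same 9, E2f6 had its highest mean in MMTV-Her2/neu (8.01) and Lin37 in MMTV-PymT tumors (7.80). Among 7 measured cyclins and kinases that the inhibitors act on, Ccne2 (2.97) and Cdk2 (1.51) were higher and Ccnd1 lower (-2.19) in C3(1)/Tag tumors. Ccnd1 encodes 1 of the D-type cyclins, and the genes of the others, Ccnd2 and Ccnd3, were not called there. In the mean of the 8 models Cdk2 (1.87), Cdk4 (1.84) and Ccnd1 (1.51) were higher than in the gland, and between the classes Cdk2 alone was called (0.74 higher in basal-type tumors).

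Among the other CDK inhibitors 2 were measured, and Cdkn2d, which encodes p19Ink4d, was the one called, higher in C3(1)/Tag tumors (2.62, SE 0.371) and in basal-type tumors (1.12, SE 0.353). Of 12 measured Polycomb genes and other regulators of the Ink4 and Arf start sites, 5 were higher in each of the 3 comparisons and none was lower. Id1 (3.22), Ets1 (1.06) and Ets2 (0.89) led the basal-type tumors, Id1 (3.37), Ezh2 (1.99) and Ets1 (1.44) the C3(1)/Tag tumors, and Ets2 (1.43), Dmtf1 (0.95) and Suz12 (0.85) the tumors against the gland. Of the 2 measured Arf partners Npm1 was higher in tumors than in the gland (0.52), with no call in the other comparisons. Of 7 genes that control p27, Skp2, the subunit that marks p27 for breakdown, was higher by 3.08 in tumors than in the gland, with Cul1 (1.02) and Cks1b (0.77). In C3(1)/Tag tumors Skp2 (1.52), Cks1b (1.00) and Cul1 (0.65) were higher and Foxo3 lower (-1.02), and in basal-type tumors Uhmk1 (0.94) and Cks1b (0.58) were higher and Foxo3 lower (-0.75).

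Within models, Rbl1 went with a gene of proliferation. After each model's mean was subtracted, Rbl1 and Mki67, the Ki-67 gene, correlated over the 41 tumors with r = 0.63 and rho = 0.55 (permutation p = 0.00128 and 0.00182, adjusted over 6 relations 0.00384 and 0.00546). Without the 2 tumors farthest from the median of Rbl1 (BRCA1-/-p53+/- 2 and MMTV-Wnt1 3) r was 0.43 (permutation p = 0.0235), and without the 4 tumors of low epithelial marker level it was 0.42 (permutation p = 0.0351, 37 tumors). For Cdkn1b and Mki67 r was 0.51 and rho 0.42 (permutation p = 0.00409 and 0.0132, adjusted 0.00613 and 0.0158), and without the 2 farthest tumors r was 0.47 (permutation p = 0.0130). Without the 4 low-epithelial tumors it was 0.28 (permutation p = 0.142), and whether the relation rests on those tumors was not tested. Rb1 and Rbl2 gave r = 0.39 and rho = 0.44 (permutation p = 0.0254 and 0.00919, adjusted 0.0305 and 0.0138), r = 0.48 without the 2 farthest tumors (permutation p = 0.00444) and r = 0.33 without the low-epithelial tumors (permutation p = 0.0984). Cdkn2c and Rbl1 gave r = -0.05 and rho = -0.01 (permutation p = 0.789 and 0.943), and without the 2 farthest tumors r stayed near 0 (permutation p = 0.966). The other 2 of the 6 relations were those of Cdkn2a, with Cdkn2b (r = 0.68, permutation p = 1.4e-04) and with Rb1 (r = -0.52, permutation p = 0.00387). Without the low-epithelial tumors r was 0.60 (permutation p = 0.00151) and -0.36 (permutation p = 0.0883). They are not read further, since Cdkn2a fell into 2 clusters.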

How the data were processed

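Affymetrix mouse genome arrays of 41 tumors and 5 glands, 1 array per mouse, were scanned with GCOS, and the deposited log2 values had been normalised by the authors with GC-RMA in Partek and filtered on MAS5 detection calls (present or marginal in at least 3 samples). Versions of these tools are not given in the sources used here. Of 18586 probe sets, 16962 named 1 gene in the platform annotation, 569 several and 1055 none. Probe sets over log2 4 on at least 3 arrays were kept (14843), and each gene was read from the kept set of highest mean (9329 genes).

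Groups came from the sample titles. Models in limma 3.58.1 (R 4.3.3) were fitted with 9 groups on 46 arrays, or with 2 tumor classes on 41, with Benjamini-Hochberg adjustment over all genes and a threshold of 0.05. Neighbouring groups were compared by exact permutation and relations by 100000 permutations within models. The fits were tested on simulated data. No 2 arrays were identical. P-values of the fits with 9 groups measure the spread between mice within groups, pooled over the groups. In the fit of the 2 classes the spread also holds the differences between models of a class. The number of arrays limits the precision.

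Members, gene lists and tests were chosen with earlier results of these data known. All 8 members are named. From the pathway lists (other CDK inhibitors, cyclins and kinases, E2F, DP and DREAM genes, E2F targets of replication, mitotic genes, Ink4/Arf regulators, Arf partners, p27 control) up to 3 called genes per direction are named, and for each member but Cdkn2a the 2 most alike genes. Alternatives covered scaling, filter, floor, choice of probe set, eBayes settings, array weights, strain, blocks, covariates and left-out arrays, of which the omissions of tumors with low epithelial or high salivary markers were chosen after the data were seen.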

Additional observations from a re-analysis of the deposited data

Results flagged for a closer look

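For each of the 8 members the 9 groups of 4 to 7 arrays were tested by Dixon's criterion, and in 8 of these 72 sets 1 array lay apart. In independent sets of normally distributed values chance alone meets the criterion in about 1 in 20. The 72 sets reuse the same 46 arrays, and many Cdkn2a values lie at the floor, so the count of 8 is a description. For Cdkn2a these were MMTV-Wnt1 3 at 8.18 (the other MMTV-Wnt1 tumors read 2.37 to 2.53), MMTV-PymT 5 at 5.92 (others 2.05 to 2.45) and MMTV-Her2/neu 1 at 2.20 (others 2.07 to 2.10, all near the floor). MMTV-Wnt1 3 also stood apart for Cdkn1b at 7.41, where the others read 10.72 to 11.12. Gland 3 stood apart for Cdkn2b at 5.88 (other glands 4.06 to 4.39) and MMTV-H-Ras 3 for Cdkn2c at 7.81 (others 8.66 to 8.85). MMTV-c-Myc 2 stood apart for Rb1 at 9.79 (others 8.34 to 8.55) and MMTV-H-Ras 1 for Rbl2 at 6.17 (others 8.52 to 9.42), and MMTV-H-Ras 1 also had the lowest array median of the series (6.48).

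The difference from the gland was not the same in all 8 models for 6 of the 8 members, a share near the 74.5% of all genes that passed the same test. The limma F test over the 8 models gave an adjusted p of 1.17e-06 for Cdkn2b, 1.59e-06 for Cdkn2c, 3.10e-06 for Rbl1, 9.26e-06 for Rb1, 1.38e-05 for Cdkn2a and 0.00151 for Rbl2. The models at the extremes were p53-/- transplant (6.07) and MMTV-Her2/neu (-0.14) for Cdkn2b, C3(1)/Tag (0.60) and MMTV-c-Myc (-3.72) for Cdkn2c, C3(1)/Tag (3.92) and BRCA1-/-p53+/- (0.49) for Rbl1, MMTV-PymT (0.41) and p53-/- transplant (-2.38) for Rb1, and MMTV-Her2/neu (1.03) and MMTV-c-Myc (-1.35) for Rbl2. For Cdkn2a the highest was C3(1)/Tag (5.45), and no lowest model is named because several lay at the floor.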

How the results depend on the processing

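The number of members called between the tumor classes (2) was 4 with array weights, 4 on FVB arrays only, 4 with equal-weighted models and 0 when the model was a random block, and 2 to 3 when 1 array was left out. The counts of calls against the gland (31), against the other models (17), in the mean of the 8 models (6) and across models (6) stayed within 1.5 times under all alternatives run, with ranges of 25 to 36, 15 to 25, 5 to 7 and 6 to 8 (24 to 33, 15 to 19, 5 to 7 and 6 to 7 with 1 array left out). The class difference of Cdkn1c turned to -0.57 with array weights and -0.20 on FVB arrays only, and on FVB arrays those of Rb1 and Rbl2 turned to 0.59 and 0.25, none of them called. The cause was not tested, and among FVB arrays C3(1)/Tag is the only basal-type model. Of 64 member differences followed (56 called), each met 12 to 17 of the 18 alternatives other than leaving out 1 array, since the model block, equal weighting and the covariates were run on 8 differences each and FVB arrays on 50, and 40 kept direction and call under all that were run. With 1 array left out, 99 of 2944 values lost a call, 4 gained one and none turned. Replicate numbers did not pair arrays (mean correlation of same-numbered arrays 0.0144), and with the number as a block all 64 kept their call, with a class difference of 3.69 for Cdkn2a. Quantile normalization moved the class median of all genes by -0.07. Cdkn2a and Cdkn1c lay near the array floor in many groups, which limits the size of their differences.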

Other observations

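The genes most like each member over all 46 arrays were read as a description, since the arrays share group differences and no p is given. Pcna, the replication clamp, had r = 0.90 with Rbl1 and Ube2t r = 0.88. Pdlim7 (0.88) and Crip1 (0.87) were most like Cdkn2b. Cdkn2a is left out because its values fell into 2 clusters. For the other members the highest r was lower, with Pgap4 (0.75) and Tsc22d3 (0.74) for Rb1, Mtmr6 (0.74) and Txndc16 (0.74) for Rbl2, Slc43a3 (0.68) and Syap1 (0.67) for Cdkn2c, Casp2 (0.67) and Ctnnb1 (0.67) for Cdkn1b, and St3gal6 (0.62) and Pdha1 (0.60) for Cdkn1c.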
